A study of Mus musculus with 14 samples.

Results

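The comparison set the heart against gonadal white adipose tissue (gWAT, the fat depot beside the gonads) in wild-type (WT) mice only. Its members were chosen by the sample labels: 7 of the 14 libraries of the series, 4 of WT heart (WT1 to WT4) and 3 of WT gWAT (WT1, WT3 and WT4). The other 7 libraries, 4 of heart and 3 of gWAT from mice lacking Fhl2 (KO), served only as samples in which the same tissue contrast was measured again. All mice were C57BL/6 at 21 weeks of age, with 8 weeks on a high-fat diet, and no lean-fed group was analysed here. The frozen tissues were sequenced whole as mRNA, and the values are read counts per gene. A level is given in CPM, read counts scaled to a common library size, and a difference as log2 of heart over gWAT from edgeR ± an approximate standard error (SE). This SE is the absolute log2 difference divided by the square root of the gene's F statistic in edgeR. A gene is called at a Benjamini-Hochberg adjusted p under 0.05. Means carry the SD over n = 4 hearts and n = 3 gWAT samples. Whether every library came from its own animal is not in the labels, so p-values measure the spread between these samples, which may be technical.

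The heart beats without rest and covers its need for ATP mainly by oxidising fatty acids, with glucose, lactate and ketone bodies as other fuels, in fibres packed with sarcomeres and mitochondria. White adipocytes take up and make fatty acids, store them as triglyceride in a large droplet, release them in fasting, and secrete hormones such as leptin and adiponectin. Many proteins that both tissues need are encoded by related genes of which one is the muscle form, so a tissue contrast can show which form each tissue transcribes.

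The 4 heart libraries held 12173977 to 13272412 counts and the 3 gWAT libraries 15105019 to 16040188. The cardiomyocyte markers summed to 40167, 38379, 41832 and 43496 CPM in heart WT1 to WT4 and to 22.7, 21 and 22 CPM in gWAT WT1, WT3 and WT4. White adipocyte markers ran the other way, at 16940, 10055 and 12655 CPM in gWAT and 374, 543, 556 and 393 CPM in heart. Both tissues thus held their defining markers. Fhl2, the gene lacking in the KO mice, was at 1204, 1246, 1511 and 1627 CPM in WT heart and 3.59, 4.99 and 4.56 CPM in WT gWAT (8.31 ± 0.23), and at 33.5 to 44.6 CPM in KO hearts and 0.207 to 0.375 CPM in KO gWAT. Some libraries stood apart within their group. Atrial markers summed to 4911, 4065, 199 and 258 CPM, so that heart WT1 and WT2 held far more atrial transcript than WT3 and WT4, and mesothelial markers, of the cells that line the heart and fat surfaces, followed the same split (261, 335, 56.8 and 47.7 CPM). Results on genes that follow this split are also given with WT3 and WT4 as the only hearts where that moved them. In gWAT, WT1 had less macrophage transcript than WT3 and WT4 (2088, 4088 and 3248 CPM) and more adipocyte transcript. Testis germ cell markers summed to 0.456, 8.83 and 0.194 CPM in gWAT, the second of these being WT3. A smaller number of cells of a type and less RNA per cell cannot be told apart in whole tissue.

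**Figure D1:**
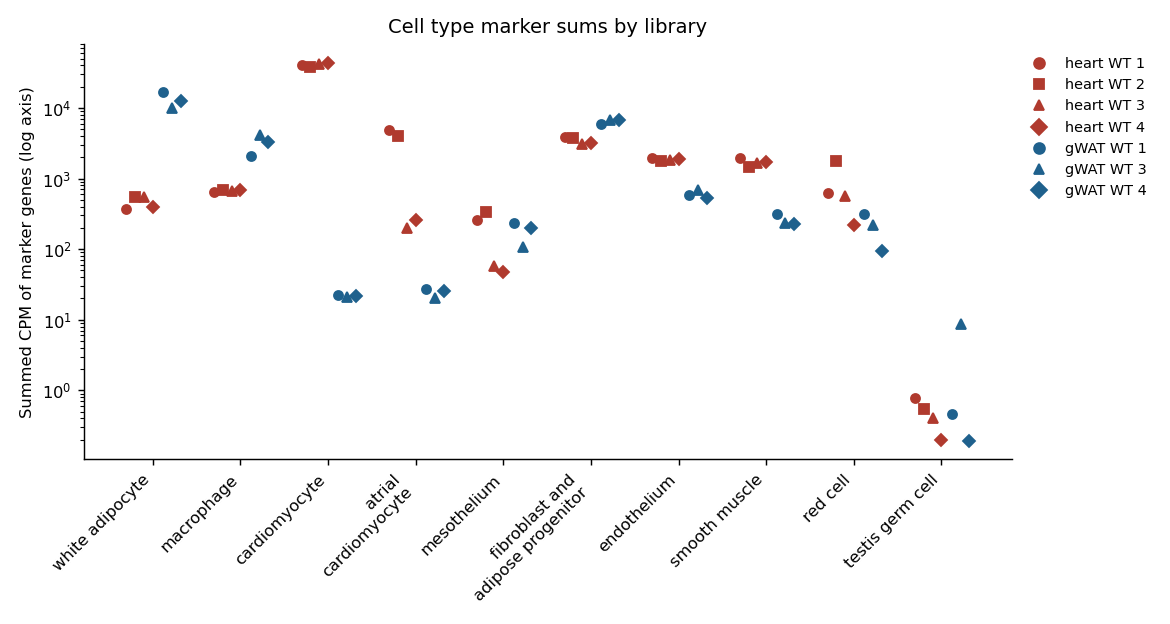
Summed CPM of marker genes for 10 cell types (log axis) in each of the 7 WT libraries; red symbols are heart, blue symbols gWAT, and the symbol shape is the replicate number. The atrial and mesothelial sums of heart WT1 and WT2 lie above those of WT3 and WT4, and gWAT WT1 has the lowest macrophage sum of the 3 gWAT libraries.

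The tissues differed in most of what was measured. Of 15287 genes tested with edgeR, 5092 were higher in heart (33.3%) and 5513 higher in gWAT (36.1%), and the median difference over all tested genes was −0.03. At least a 4-fold difference was reached by 1510 genes in heart (9.88%) and 1645 in gWAT (10.8%). The groups did not overlap for 10695 tested genes (70.0%). These shares are the background for every count of list members below: a list like all genes would have 33.3% of its members called in heart and 36.1% in gWAT. The split between the tissues changed with the scaling of libraries. With library totals in place of edgeR's TMM scaling, 2897 genes were higher in heart and 8569 in gWAT, the share of calls that were higher in heart went from 48.0% to 25.3%, and the median of all genes moved to −0.61. With edgeR's RLE scaling the share was 49.4% and the split stayed near even.

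Genes of contraction and of the energy supply beside it had the largest differences toward the heart among well-expressed genes. These were called genes with a mean log2 CPM above 5 and no overlap between groups, with predicted genes and pseudogenes left out. Over all tested genes the difference reached 13.18. Ckm (ENSMUSG00000030399, chromosome 7, 19404776 to 19422841 in GRCm38), the muscle creatine kinase that rebuilds ATP from phosphocreatine, was at 1328, 1131, 1491 and 1605 CPM in heart WT1 to WT4. In gWAT WT1, WT3 and WT4 it was at 0.456, 0.199 and 0.194 CPM, a difference of 12.25 ± 0.31 (adjusted p = 5.27e-09). The groups lay far apart, with no gWAT library above 0.456 CPM. After it came Tnnt2, troponin T, which ties the calcium switch to the thin filament (11.91 ± 0.28), Ckmt2, the mitochondrial creatine kinase (11.90 ± 0.28), and Actn2, the alpha-actinin of the Z-disc (11.88 ± 0.21). The next were Myoz2, a Z-disc binder of calcineurin (11.82 ± 0.32), Myh6, the alpha myosin heavy chain (11.79 ± 0.35), Csrp3, a muscle LIM protein (11.68 ± 0.23), and Myl2, the ventricular regulatory light chain (11.63 ± 0.28). Mb, which encodes the oxygen store myoglobin, stood at 9749 ± 1011 CPM in heart and 3.28 ± 1.20 CPM in gWAT (11.54 ± 0.37), and the giant sarcomere spring Ttn at 6365 ± 809.6 and 2.15 ± 0.609 CPM (11.54 ± 0.32). The heart actin Actc1 and the essential light chain Myl3 complete the 12 largest under these limits (11.50 ± 0.32 and 11.47 ± 0.31). In the 3 gWAT libraries the 15 sarcomere genes above 1000 CPM in heart stood at a median of 0.0448%, 0.0291% and 0.0303% of their heart level, and whether those reads came from cells of the depot was not tested.

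Toward fat, under the same limits, the largest differences were in hormones, lipid storage and macrophages. Over all tested genes the difference toward fat reached −12.03. Lep (ENSMUSG00000059201, chromosome 6, 29060220 to 29073877), which encodes the satiety hormone leptin, was at 5323, 2866 and 4302 CPM in gWAT WT1, WT3 and WT4. In heart WT1 to WT4 it was at 3.87, 14.7, 23.7 and 3.85 CPM (−8.50 ± 0.71, adjusted p = 5.95e-06), with WT2 and WT3 the higher hearts and a difference of −9.12 without WT3. Hp, haptoglobin, which binds free haemoglobin (−7.67 ± 0.60), Cidec, which fuses lipid droplets (−7.08 ± 0.75), and Scd1, the desaturase that makes oleate (−6.79 ± 0.62), followed. Also among the 12 were Mest, an imprinted gene tied to fat expansion (−6.65 ± 0.42, or −7.33 with WT1 and WT2 as the only hearts), Adipoq, adiponectin (−6.64 ± 0.75), Cdo1, which oxidises cysteine (−6.43 ± 0.50), Plin1, the coat of the large lipid droplet (−6.29 ± 0.68, or −6.93 without heart WT2), Prkar2b, a regulatory subunit of protein kinase A (−6.19 ± 0.46), and Fasn, fatty acid synthase (−6.19 ± 0.29). The remaining pair are macrophage genes: Gpnmb, a glycoprotein of lipid-laden macrophages, at 305, 2073 and 1416 CPM in gWAT, and Lgals3, galectin 3, at 489, 1489 and 1135 CPM (−8.41 ± 0.66 and −6.46 ± 0.46). Both were lowest in gWAT WT1. The heart libraries differed among themselves in adipocyte transcripts: Adipoq was at 6.80, 30.4, 31.7 and 2.87 CPM, so that WT2 and WT3 held several times the level of WT1 and WT4. The 6 adipocyte markers above 1000 CPM in gWAT stood in the 4 hearts at a median of 0.512%, 2.17%, 1.69% and 0.184% of their gWAT level. The part of adipose cells attached to the heart samples in these values was not tested.

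The bases just before the start sites of the genes that separate the tissues can be set beside these values. Promoters were read from RefSeq on GRCm38.p6, whose start sites can differ from the gene bounds given above, for 10974 of the 15287 tested genes, over the 250 bases before the start, on both strands. Shown are 2 genes of the heart and 2 of fat, from 5' to 3' along the gene, with a motif in capitals: Ckm at chr7:19410844-19411093 (plus strand) and Cidec at chr6:113435761-113436010 (minus strand) with an E-box (CAGCTG, bound by basic helix-loop-helix factors), Actc1 at chr2:114052876-114053125 (minus strand) with a CArG box (the site of Srf), and Lep at chr6:29059971-29060220 (plus strand) with a C/EBP motif (TTGCNNAA).
Ckm: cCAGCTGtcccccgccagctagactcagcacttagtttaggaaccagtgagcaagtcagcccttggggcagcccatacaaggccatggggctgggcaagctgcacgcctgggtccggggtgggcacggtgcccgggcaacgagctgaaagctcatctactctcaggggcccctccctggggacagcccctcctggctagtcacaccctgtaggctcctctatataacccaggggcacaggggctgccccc
Actc1: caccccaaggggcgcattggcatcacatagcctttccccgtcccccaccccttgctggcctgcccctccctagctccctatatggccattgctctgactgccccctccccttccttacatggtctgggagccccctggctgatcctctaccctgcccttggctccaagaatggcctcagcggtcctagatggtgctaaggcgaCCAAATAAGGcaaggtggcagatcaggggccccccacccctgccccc
Lep: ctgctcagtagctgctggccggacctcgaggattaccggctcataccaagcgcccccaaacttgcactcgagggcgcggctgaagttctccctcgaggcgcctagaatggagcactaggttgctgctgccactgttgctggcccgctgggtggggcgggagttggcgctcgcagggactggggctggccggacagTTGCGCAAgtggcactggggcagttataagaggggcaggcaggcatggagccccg
Cidec: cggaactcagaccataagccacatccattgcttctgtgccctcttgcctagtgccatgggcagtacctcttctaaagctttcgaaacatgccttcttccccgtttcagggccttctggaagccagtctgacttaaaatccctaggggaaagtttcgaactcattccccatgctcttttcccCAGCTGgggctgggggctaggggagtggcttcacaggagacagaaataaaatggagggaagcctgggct
The CArG box of Actc1 lay 47 to 38 bases before the start and the C/EBP motif of Lep 55 to 48 bases before it. The E-boxes stood 249 to 244 bases before the start of Ckm and 69 to 64 bases before that of Cidec, so it occurred before a gene of each tissue. The Fabp3 window held none of the motifs searched. The CArG box was in 1.14% of all 10974 promoters, in 1.86% of the 1023 promoters of genes at least 4-fold higher in heart and in 0.51% of the 1176 of genes at least 4-fold higher in gWAT. It was in 6 of 28 sarcomere promoters. The E-box and the GATA motif AGATAA were also in 6 of these each, MEF2 and TATAAA in 4 each, and C/EBP in 1. The MEF2 motif was in 1.9%, 5.47% and 1.36% of all promoters, the heart set and the gWAT set. For C/EBP the shares were 7.65%, 9.09% and 10.8%, and for the E-box 12%, 15.2% and 14.7%. The GATA motif AGATAA was in 6.01%, 8.02% and 7.23%, and the TATA box TATAAA in 6.95%, 10.5% and 9.78%. TNAAGGTCA, of oestrogen-related receptors, was in 0.629%, 0.782% and 0.765%, and the NRF1 motif in 1.56%, 0.782% and 1.36%. MEF2 had the widest gap in percentage points between the heart and gWAT sets. A match is letters in a window, and binding was not measured.

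Counted per kilobase of exon, the 10 most abundant genes of the heart were 6 mitochondrial protein genes (mt-Cytb, mt-Co1, mt-Nd1, mt-Nd2, mt-Nd5 and mt-Nd4), the mitochondrial ribosomal RNAs mt-Rnr2 and mt-Rnr1, and Gm29216 and Gm42418, whose loci resemble other abundant RNAs so that their counts are uncertain. In gWAT the 10 were Gm42418, Scd1 (4445 CPM per kb), mt-Cytb, mt-Nd1, mt-Co1, Hp (2656), mt-Nd2, Fabp4 (2316), Car3 (2312) and B2m (1921). Car3, carbonic anhydrase 3, was at 43.1, 173, 151 and 13.5 CPM in heart and 9417, 4457 and 6000.3 CPM in gWAT (−6.12 ± 0.82). The hearts WT2 and WT3 were again above WT1 and WT4 for it.

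The sarcomere list was higher in heart for all 33 tested members, each at least 4-fold, with a median difference of 11.02 and with 32 of the 33 free of overlap between groups. Per kilobase of exon its most abundant members in heart were Actc1 (4858 CPM per kb), Myl2 (3694), Myh6 (1867), Tnni3, the inhibitory troponin (1437), and Tnnc1, the calcium-binding troponin (1388). In gWAT the same 5 genes were at 0.528 to 1.68 CPM per kb. The list's lowest difference was 3.86. The 1 member with overlap, named here after its values were seen, was the atrial light chain Myl4 at 1017, 908, 8.72 and 26.3 CPM in heart and 16.1, 7.88 and 13 CPM in gWAT (5.31 ± 1.57). Its call rested on WT1 and WT2: with WT3 and WT4 as the only hearts its difference was 0.53 (adjusted p = 0.344), without WT1 alone it was 4.66, and with WT1 and WT2 as the only hearts 6.27. Actin and myosin genes are close copies of each other, and reads that match several of them may be lost or moved in the authors' counting.

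Calcium handling and excitation genes were mostly higher in heart too. Of 32 tested, 29 were higher in heart and 1 in gWAT, with a median of 4.28. Atp2a2, the pump that returns calcium to the reticulum, was at 11837, 11732, 12271 and 13136 CPM in heart and still at 175, 156 and 159.8 CPM in gWAT (6.22 ± 0.20). Its inhibitor Pln, phospholamban, was at 5760.4 ± 966 CPM in heart and 2.06 ± 0.385 CPM in gWAT (11.45 ± 0.31), a far lower share of its heart level than the pump kept. The luminal calcium binders Hrc (10.98 ± 0.33) and Casq2 (9.69 ± 0.32) were also near 0 in gWAT. S100a1, a calcium sensor of muscle, differed by 3.19 ± 0.11. Sri, sorcin, which binds the release channel in many tissues, was the 1 member higher in gWAT (53.9 ± 2.49 against 91.5 ± 5.08 CPM, −0.76 ± 0.08).

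Myosin genes and Mest hold miRNA genes within their bounds, whose sequences are shown because they lie on the same strand as hosts that separate the tissues. The mature sequences are from RefSeq (GRCm38.p6), with the seed, bases 2 to 8, in capitals. They lie at chr14:54949072-54949093 (minus strand), chr14:54975710-54975731 (minus strand), chr2:155622893-155622913 (plus strand) and chr6:30741314-30741336 (plus strand).
mmu-miR-208a-3p: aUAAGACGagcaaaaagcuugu
mmu-miR-208b-3p: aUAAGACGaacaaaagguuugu
mmu-miR-499-5p: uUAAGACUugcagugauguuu
mmu-miR-335-5p: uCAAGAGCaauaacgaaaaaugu
The 208a and 208b forms share the seed UAAGACG, miR-499-5p has UAAGACU and miR-335-5p CAAGAGC. Myh6, host of the 208a form, was at 13148, 11365, 12449 and 13264 CPM in heart and 4.90, 3.04 and 2.72 CPM in gWAT. The hosts of the 208b form and of miR-499, Myh7 and Myh7b, had 7087 and 1900 reads over the 4 hearts and 3 reads each over the 3 gWAT libraries. Mest, host of miR-335, ran the other way at 6.54, 7.50, 19.1 and 11.5 CPM in heart and 1592, 836 and 921 CPM in gWAT (−6.65 ± 0.42). Of 471 tested genes that hold a miRNA precursor within their bounds, 136 were higher in heart and 205 in gWAT, with 39 and 51 of them at least 4-fold. These libraries are of mRNA, and the miRNAs themselves were not measured.

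Reads of mitochondrial genes filled a large part of every heart library. The 13 protein genes of the mitochondrial genome took 27.6%, 26.2%, 30.8% and 31.8% of all reads in heart WT1 to WT4. In gWAT WT1, WT3 and WT4 they took 3.22%, 2.05% and 2.36%. The means were 29.1% ± 2.63 (SD, n = 4) and 2.55% ± 0.608 (SD, n = 3), a ratio of 11.4. By an exact two-sided permutation test p = 0.0571, the smallest value that the 35 splits of 4 against 3 samples allow. In the KO samples the share was 25.6% to 28.9% in heart and 3.12% to 3.99% in gWAT. The 10 most abundant genes of a library took 32.7% to 37.9% of the reads in heart and 10.6% to 13.5% in gWAT.

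All 12 mitochondrially encoded genes that could be tested were higher in heart, with a median difference of 4.18 and a range of 3.76 to 5.34. mt-Co1, a core subunit of cytochrome c oxidase, was at 82668, 79927, 99812 and 105850 CPM in heart and 6775, 3683 and 4506 CPM in gWAT (4.21 ± 0.35). Per kilobase mt-Cytb, cytochrome b of complex III, was the most abundant gene of the heart at 71855 CPM per kb and the third in gWAT at 4022. The complex I subunits mt-Nd1, mt-Nd2 and mt-Nd5 differed by 4.01 ± 0.35, 3.79 ± 0.34 and 4.26 ± 0.32. Within the gWAT group WT1 had the highest value of each of these genes. The value of mt-Co2 was uneven in heart (34.3, 28.6, 215 and 40.2 CPM), and without WT3 its difference fell from 5.34 to 4.13. The counts of the 13 genes differed widely: mt-Atp6, mt-Co2 and mt-Co3 averaged 44.1 to 79.5 CPM in heart and mt-Nd3 and mt-Nd4l 3.96 to 4.40 CPM. Such genes have near-identical nuclear copies, their counts are uncertain, and the cause of their low values was not tested. The share above is therefore a sum of counted reads, not of transcripts.

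**Figure D2:**
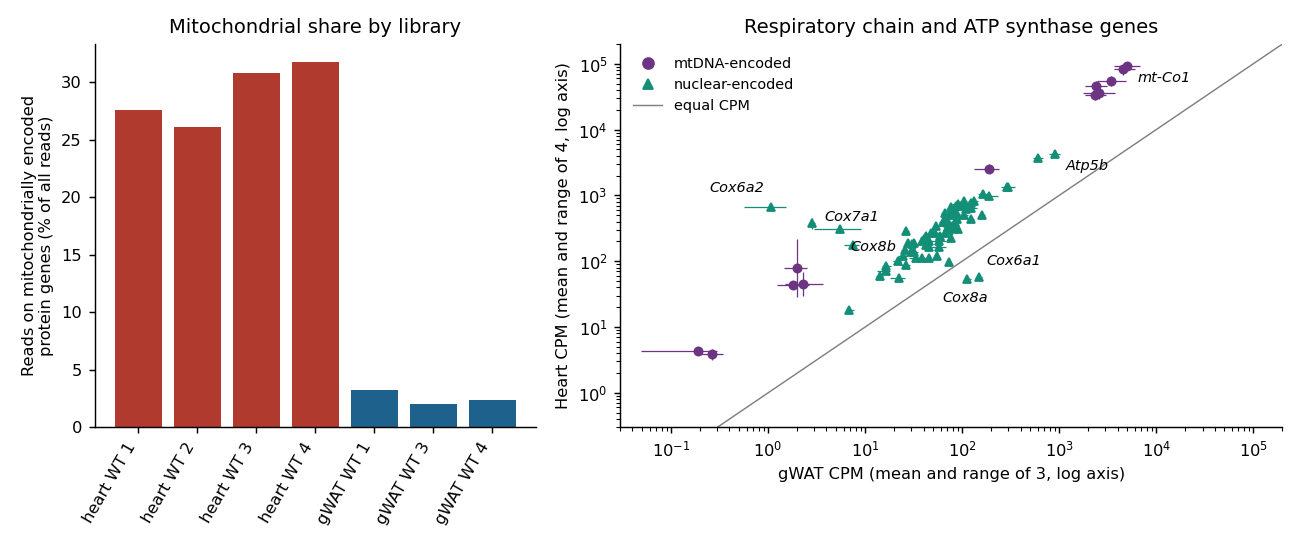
Left, percent of all reads on the 13 mitochondrially encoded protein genes, 1 bar per WT library (red heart, blue gWAT). Right, mean CPM in heart against mean CPM in gWAT for each tested gene of the respiratory chain and ATP synthase, with bars for the range over libraries and a line of equal CPM, both axes on a log scale. The heart bars reach 26.2% to 31.8% and the gWAT bars 2.05% to 3.22%, and Cox6a1 and Cox8a are the nuclear-encoded genes below the line.

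The nuclear genes of the respiratory chain and ATP synthase were higher in heart with a smaller median than the mitochondrial ones. Of 78 tested, 76 were higher in heart and 2 in gWAT, with a median of 2.30. Atp5a1 and Atp5b, the catalytic head of ATP synthase, were at 3649.8 ± 332 and 4230 ± 403 CPM in heart and at 612 ± 69.9 and 913 ± 118 CPM in gWAT (2.58 ± 0.16 and 2.21 ± 0.16). Cox4i1, the regulatory subunit of cytochrome c oxidase, differed by 2.22 ± 0.14. The 2 genes higher in gWAT were Cox6a1 (−1.39 ± 0.09) and Cox8a (−1.06 ± 0.09), both the widely expressed forms of oxidase subunits that have a muscle form.

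The share of the muscle form of these oxidase subunits was higher in heart. Cox6a2, the muscle form of subunit 6A, was at 614, 637, 734 and 729 CPM in heart and 0.570, 1.55 and 1.12 CPM in gWAT, while Cox6a1 was at 54.8, 61.3, 58.8 and 52 and 161, 140.2 and 145 CPM. Counted per kilobase, Cox6a2 made up 92.5% ± 0.899 of the pair in heart and 0.759% ± 0.382 in gWAT. Cox8b made up 90.6% of its pair with Cox8a in heart and 7.41% in gWAT, and Cox7a1 67.2% of its pair with Cox7a2 in heart and 5.66% in gWAT. Cox7a2 was itself higher in heart (1.94 ± 0.11), by less than Cox7a1 (7.05 ± 0.20). Slc25a4, the muscle ADP/ATP carrier that exports ATP from mitochondria, was 95.4% of its pair with Slc25a5 in heart and 49.9% in gWAT, with Slc25a5 itself not called (0.03 ± 0.08). These are different genes, and splice forms of a gene cannot be read from the counts.

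In 43 such pairs the first gene was the form taken as that of muscle or heart. For Idh2, Acss1 and Me3 it was a mitochondrial enzyme. The ratio of the first to the second was higher in every heart than in every gWAT library for 40 pairs. The pairs were chosen with earlier results of these data known, so this count describes them and does not test for a general switch. Among all tested genes taken singly, the groups did not overlap for 70.0%. In 33 pairs both genes were called in opposite directions, in 32 of them with the first gene higher in heart. The larger form per kilobase switched in 28 pairs, from the second gene in gWAT to the first in heart. Which form is the larger rests on counted reads, and reads lost to similar copies of a gene were not assessed. The median difference in log2 ratio was 7.39. Pfkm and Pygm each stand in 2 pairs, so the pairs are not all separate. Fatty acid binding proteins had the largest shift: the log2 ratio of Fabp3 to Fabp4 was 3.04 ± 0.12 in heart and −11.18 ± 1.02 in gWAT. Cytosolic creatine kinase followed at 6.19 ± 0.41 in heart and −7.75 ± 1.56 in gWAT for Ckm over Ckb, and the actins at 5.11 ± 0.23 in heart and −8.63 ± 0.72 in gWAT for Actc1 over Actb. Shifts above 10 were also seen for Actn2 over Actn4 (13.37), Myl3 over Myl6 (12.81), Pygm over Pygl (12.79), Rpl3l over Rpl3 (12.28), Cav3 over Cav1 (12.12), Ckmt2 over Ckmt1 (11.55), Pgam2 over Pgam1 (11.50), Cavin4 over Cavin1 (11.39), Cox6a2 over Cox6a1 (10.76), Eef1a2 over Eef1a1 (10.82) and Plin5 over Plin1 (10.15). Rpl3l and Cav3 had only 3 reads and 1 read over the gWAT libraries, so the size of their shifts rests on the 0.5 reads added to each gene. Ckmt1 was near 0 in both tissues (0.472 CPM per kb in heart and 0.208 in gWAT) and was not called by edgeR (adjusted p = 0.253). The log2 ratio of Ckmt2 to Ckmt1 was 10.21, 9.89, 12.75 and 15.93 in heart WT1 to WT4, so the size of this shift is uncertain. With WT1 and WT2 as the only hearts Ckmt1 differed by 2.02 (adjusted p = 0.0138). Pairs such as Cav3 and Cav1 shifted without switching: Cav1, which shapes the surface pits of adipocytes and endothelium, was the larger form in heart, where Cav3 was 17.5% of the pair.

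The adenylate cyclases, which make cyclic AMP, ran against the pattern, with a log2 ratio of Adcy5 to Adcy6 of −1.66 ± 0.22 in heart and 0.66 ± 0.20 in gWAT. For hexokinase, which traps glucose in the cell, the ratio of Hk2 to Hk1 overlapped between tissues (1.39 ± 0.13 in heart and 1.80 ± 0.79 in gWAT), and both genes were higher in heart. The glucose transporters showed a small shift: Slc2a4, the insulin-responsive carrier, was 95.2% of its pair with Slc2a1 in heart and 85.5% in gWAT. The pump pair Atp2a2 and Atp2a3 had the cardiac pump as the larger form in both tissues, at 99.8% and 62.2%. In the 7 KO libraries, which these values do not use, the same pairs shifted by 14.96 (Fabp3 over Fabp4), 12.30 (Ckm over Ckb), 12.39 (Cox6a2 over Cox6a1) and −2.41 (Adcy5 over Adcy6).

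Further structural, fuel and regulatory pairs had the ratio of the first form higher in heart as well. Tropomyosin Tpm1, which covers the myosin sites of the thin filament, was 91.4% of the pair in heart and 8.93% in gWAT, with Tpm4 as the other form. Of the intermediate filaments Des and Vim, the muscle filament Des was 80.5% of the pair in heart and 1.22% in gWAT. Dystrophin, encoded by Dmd, which ties the cytoskeleton to the membrane, was 39.4% of the pair in heart and 2.79% in gWAT, so that its relative Utrn was the larger form in both tissues. The same held for Cavin4 and Cavin1, of membrane pits, where Cavin4 was 37.1% of the pair in heart and 0.0200% in gWAT. The mitochondrial acetate enzyme Acss1 was 96.5% of the pair in heart and 20.4% in gWAT, with the lipid-making Acss2 as the other form. Me3, the mitochondrial malic enzyme, was 12.6% of the pair in heart and 0.0831% in gWAT, and Gpd1l, a relative of Gpd1, 43.5% of the pair in heart and 1.89% in gWAT. Pfkm was 93.6% of the pair in heart and 22.4% in gWAT when set against the liver form Pfkl. The phosphorylase kinase subunit Phka1 was 73.5% of the pair in heart and 15.9% in gWAT, with Phka2 as the other form. Of the nuclear receptors of mitochondrial genes, Esrrg was 29.8% of the pair in heart and 9.32% in gWAT, with Esrra larger in both. Ndufa4 was 97.4% of the pair in heart and 94.5% in gWAT, with Ndufa4l2 the minor form in both. Adrb1 was 86.6% of the pair in heart and 1.83% in gWAT with Adrb3.

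**Figure D3:**
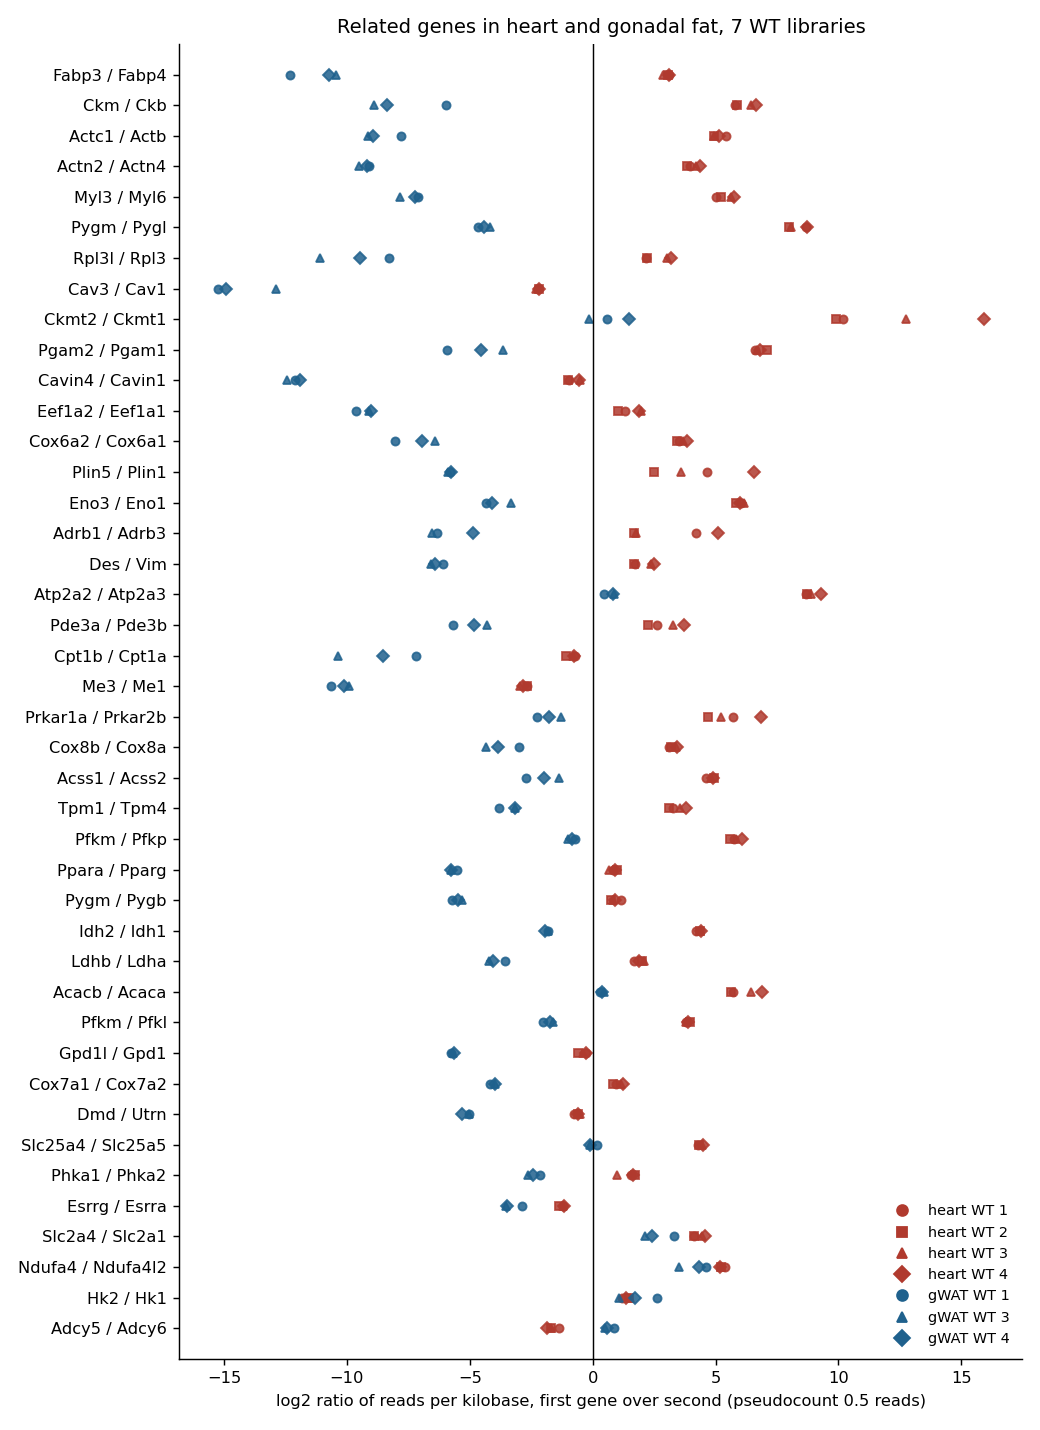
Log2 ratio of the first gene to the second in each of the 42 pairs shown, from reads per kilobase of exon with 0.5 reads added, ordered by the heart minus gWAT difference. Each symbol is 1 WT library (red heart, blue gWAT), and the ratio is higher in all 4 hearts than in all 3 gWAT libraries in 40 pairs, with Hk2 to Hk1 overlapping and Adcy5 to Adcy6 reversed.

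Fatty acid uptake genes were abundant in both tissues but mostly higher in gWAT. Of 18 tested, 14 were higher in gWAT and 4 in heart, with a median of −1.31. Lpl, the lipase that frees fatty acids from circulating triglyceride, was at 3276, 3446, 3876 and 3947 CPM in heart and 13496, 8049 and 9055 CPM in gWAT (−1.49 ± 0.21). Cd36, the main fatty acid receptor, was lower in heart by a small amount, at 2584 ± 317 and 3896 ± 307 CPM (−0.59 ± 0.15, adjusted p = 0.00678), without overlap between the groups. Its call was lost with WT3 and WT4 as the only hearts (adjusted p = 0.0851) and with the replicate number added to the edgeR model (0.0833). The carriers inside the cell were exchanged: Fabp3 (ENSMUSG00000028773, chromosome 4, 130308595 to 130315463) was at 1366, 1462, 1659.6 and 1739 CPM in heart and 0.399, 1.15 and 1.07 CPM in gWAT (10.77 ± 0.33), while Fabp4 (ENSMUSG00000062515, chromosome 3, 10204088 to 10208576) was at 862, 955, 1247 and 1096 and 12055, 8933 and 10208 CPM (−3.32 ± 0.20). Fabp4 is also made by capillary endothelium, whose markers were higher in heart, and adipocyte transcripts were present in the hearts too. The source of the Fabp4 reads in heart was not tested. The heart level of Fabp4 was 232 CPM per kb against 1892 for Fabp3. Dbi, which binds acyl-CoA, was higher in gWAT (−3.40 ± 0.16). Acsl6, an acyl-CoA synthetase, and Gpihbp1, which anchors Lpl to capillaries, were higher in heart (7.23 ± 0.46 and 0.80 ± 0.13). Acsl6 differed by 8.64 without gWAT WT3 and 6.64 without WT4, and Gpihbp1 lost its call with library totals (adjusted p = 0.088).

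Transcripts of mitochondrial fatty acid oxidation were higher in heart almost throughout. Of 22 tested genes, 21 were higher in heart and 1 in gWAT, with a median of 1.69. The acyl-CoA dehydrogenases for long, medium and very long chains were at 1164 ± 162 (Acadl), 1204 ± 171 (Acadm) and 968 ± 138 CPM (Acadvl) in heart. In gWAT they were at 278 ± 58.5, 377 ± 80.3 and 120.0 ± 16.5 CPM, differences of 2.06 ± 0.18, 1.67 ± 0.19 and 3.01 ± 0.17. Acaa2, the last enzyme of the cycle, and Etfa, which passes its electrons on, differed by 2.47 ± 0.14 and 1.41 ± 0.16. The gene higher in gWAT was Cpt1a (74.3 ± 2.97 against 196 ± 21.6 CPM, −1.40 ± 0.10), the liver form of the enzyme that admits fatty acids to mitochondria. Its muscle form Cpt1b was higher in heart (6.20 ± 0.38). By counted reads Cpt1a was still the larger form there, at 9.73 against 5.48 CPM per kb, with Cpt1b at 35.9% ± 2.54 of the pair. Whether reads of Cpt1b were lost in the authors' counting was not tested. Cpt1b differed by 7.13 without gWAT WT1. In heart Ppara, the nuclear receptor that drives such genes, was 64.4% of its pair with Pparg, against 1.89% in gWAT (3.61 ± 0.20 and −2.92 ± 0.16).

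Mitochondrial carriers and regulators leaned to the heart as well, with 19 of 23 higher there and 1 in gWAT (median 1.85). Slc25a4, described above, was at 1406 CPM per kb in heart. Vdac1, the pore of the outer membrane (2.19 ± 0.12), Slc25a3, the phosphate carrier (2.32 ± 0.13), and Mfn2, which joins mitochondria (1.82 ± 0.14), differed moderately. Perm1, a muscle regulator of oxidative genes, was at 351 ± 33.3 CPM in heart and near 0 in gWAT (15 reads over the 3 libraries), a difference of 10.36 ± 0.35, or 11.38 without gWAT WT1. Ucp2, a carrier of the inner membrane that is common in macrophages, was the 1 gene higher in gWAT. It was at 187, 161, 85.5 and 80.0 CPM in heart, with WT1 and WT2 the higher hearts, and at 447, 758 and 640.1 CPM in gWAT, with WT1 the lowest (−2.26 ± 0.32, or −2.88 with WT3 and WT4 as the only hearts). Ucp1, the uncoupler of brown fat, had 2 reads over the hearts and 8 over the gWAT libraries and was not tested.

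Glycolytic genes went both ways, often by form. Of 25 tested genes of glucose uptake and glycolysis, 14 were higher in heart and 7 in gWAT, with a median of 0.98. Muscle forms were higher in heart: Pfkm, the committing kinase, at 801, 735, 849 and 899 CPM against 14.1, 11.9 and 13.2 CPM in gWAT (5.97 ± 0.15), Pgam2, phosphoglycerate mutase (10.08 ± 0.26), and Eno3, enolase (7.67 ± 0.23). Ldhb, the lactate dehydrogenase form common in oxidative tissue, was 78.9% of its pair with Ldha in heart and 6.15% in gWAT (5.20 ± 0.29 and −0.60 ± 0.14). Aldoa, aldolase, was close to even (1584 ± 94.4 against 1208 ± 136 CPM, 0.39 ± 0.13): it turned to −0.19 with library totals and lost its call without heart WT3 or WT4 or gWAT WT3 or WT4 (adjusted p = 0.0583 to 0.0772). Higher in gWAT was Pfkfb3, which makes the activator of phosphofructokinase, at 1093, 629 and 762 CPM against 24.3, 28.6, 30.9 and 23.9 CPM (−4.94 ± 0.21). Eno1 (−2.24 ± 0.11) and Pfkp (−0.70 ± 0.08) were also higher in gWAT. Gapdh, which has many processed copies in the genome, was counted at only 2.60 CPM in heart and 1.08 CPM in gWAT. These levels are uncertain, their cause was not tested, and the call was lost without gWAT WT4 (adjusted p = 0.061).

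Glycogen genes leaned to the heart, with 12 of 19 higher there and 3 in gWAT (median 1.26). Of the phosphorylases that break glycogen down, Pygm was at 887 ± 143 CPM in heart and 2.14 ± 0.218 CPM in gWAT (8.69 ± 0.22), and the brain form Pygb at 706 ± 112 and 150.4 ± 37.3 CPM (2.23 ± 0.20). The liver form Pygl was higher in gWAT (−4.15 ± 0.20). Ugp2, which activates glucose for storage, differed by 2.07 ± 0.13, and Gyg, the primer of the granule, by 0.32 ± 0.09, which turned to −0.26 with library totals. Ppp1r3c, which brings a phosphatase to glycogen, was even across hearts (125, 129, 124 and 126 CPM) and uneven in gWAT (53.6, 13.4 and 26.6 CPM), with WT1 the highest (2.02 ± 0.38, or 2.66 without it). Phosphorylase kinase subunits Phka2 (−1.95 ± 0.12) and Phkg2 (−0.65 ± 0.16) were higher in gWAT, the second not with WT3 and WT4 as the only hearts (adjusted p = 0.0616).

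Transcripts of pyruvate use differed by route. Genes of the pyruvate dehydrogenase complex and its regulators were higher in heart for 11 of 13 and in gWAT for 2 (median 1.60). Pdha1 and Pdhb, the catalytic subunits, were at 1151 ± 98.4 and 438 ± 20.1 CPM in heart against 203 ± 36.6 and 85.5 ± 15.6 CPM in gWAT (2.51 ± 0.16 and 2.36 ± 0.14). The kinases that switch the complex off were also higher in heart: Pdk4, induced by fatty acids, at 497, 351, 461 and 416 CPM against 120.2, 130.5 and 144 CPM (1.71 ± 0.14), and Pdk2 (2.77 ± 0.14). Pdk3 was higher in gWAT (−1.06 ± 0.27). Pcx, which carboxylates pyruvate to oxaloacetate for lipid synthesis and the refilling of the cycle, ran strongly the other way, at 22.3, 21, 30.5 and 19.3 CPM in heart and 928, 582 and 638 CPM in gWAT (−4.94 ± 0.22). The highest heart, WT3, was far below the lowest gWAT library.

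All 18 tested genes of the tricarboxylic acid cycle were higher in heart, with a median of 2.13. Ogdh, which turns oxoglutarate into succinyl-CoA, was at 2126, 1984, 2241 and 2406 CPM in heart and 359, 268 and 303 CPM in gWAT (2.82 ± 0.16). Idh2, the mitochondrial isocitrate dehydrogenase that makes NADPH, had 4.05 ± 0.17, and its cytosolic partner Idh1 −2.17 ± 0.12. Sdha and Sdhb, which also form complex II, had 2.19 ± 0.16 and 2.99 ± 0.12. Ketone and branched-chain amino acid genes were mixed: 10 of 21 were higher in heart and 0 in gWAT, with a median of 0.34. With library totals 7 of these were higher in heart and 8 in gWAT, so the list's direction depended on the scaling. Oxct1, which commits ketone bodies to oxidation, was at 941, 965, 1036 and 1076 CPM in heart and 532, 309 and 383 CPM in gWAT (1.30 ± 0.18). Acat1 (2.01 ± 0.19), Bckdha (1.16 ± 0.14) and Ivd (1.73 ± 0.18) were higher in heart, whereas Aldh6a1, of valine breakdown, did not pass (−0.09 ± 0.23, adjusted p = 0.744).

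Creatine genes divided by role. The kinases Ckm and Ckmt2 were high in heart, as given above, with the creatine transporter Slc6a8 at 162, 181, 198 and 189.6 CPM in heart and 29.2, 96 and 72.6 CPM in gWAT (1.47 ± 0.33), a call lost with library totals (adjusted p = 0.0507). The enzymes that make creatine were higher in gWAT: Gatm (4.63 ± 0.498 against 13.3 ± 5.08 CPM, −1.52 ± 0.27) and Gamt (3.06 ± 0.357 against 36.4 ± 10.2 CPM, −3.57 ± 0.20). Ckb, the brain form of the kinase, was at 30.4, 107 and 72.1 CPM in gWAT, lowest in WT1, and 18.9 ± 3.47 CPM in heart (−1.88 ± 0.35). In all, 4 of the 8 tested members were higher in heart and 3 in gWAT (3 and 3 with library totals). Gatm, Ckb and Slc6a8 were all lowest in gWAT WT1, the library with the lowest macrophage sum and the highest adipocyte sum. The part of either cell type in these values was not tested.

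Transcripts of fatty acid synthesis were higher in gWAT for 17 of 19 tested genes and in heart for 1, with a median of −3.41. Scd1 was at 27920, 17298 and 20020 CPM in gWAT and 108, 219, 389 and 72.4 CPM in heart, and it was the second most abundant gene of gWAT per kilobase. Fasn was at 2910.4, 2132 and 2006 CPM in gWAT and 31, 36.2, 42.2 and 19.8 CPM in heart (−6.19 ± 0.29). Scd2, a related desaturase (−4.68 ± 0.20), Me1, the cytosolic source of NADPH (−2.08 ± 0.17), and Slc25a1, which exports citrate for synthesis (−5.09 ± 0.21), were also higher in gWAT. The gene higher in heart was Acacb (279, 298, 354 and 373 against 85.2, 65.4 and 64.9 CPM, 2.18 ± 0.15), whose product makes the malonyl-CoA that restrains fatty acid entry to mitochondria. Its partner Acaca, which supplies synthesis, was higher in gWAT (−3.57 ± 0.22), and Acacb was 98.5% of the pair in heart and 56.6% in gWAT.

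Transcripts of triglyceride storage and release were higher in gWAT for 19 of 25 genes and in heart for 5, with a median of −2.76. Cidec was at 3863, 2188 and 2503 CPM in gWAT and 10.9, 31.8, 38.6 and 3.16 CPM in heart, where WT2 and WT3 were again the higher. Dgat2, which adds the last fatty acid (−2.97 ± 0.21), Gpd1, which makes its glycerol backbone (−4.69 ± 0.15), Plin4, a droplet coat (−2.98 ± 0.19), and Pnpla2, the first lipase of release (−1.99 ± 0.13), were all higher in gWAT, with Pnpla2 still at 285 ± 27.3 CPM in heart. Higher in heart were Plin5, the droplet coat of oxidative tissue (83.4 ± 11.4 against 8.35 ± 2.19 CPM, 3.32 ± 0.20), Cidea, a droplet protein of brown fat (24.6 ± 1.71 against 1.72 ± 0.757 CPM, 3.85 ± 0.24), and Plin3, the widespread coat (0.54 ± 0.09, but −0.04 with library totals). Cidea was steady across hearts at 23, 23.3, 25.9 and 26.3 CPM, unlike Cidec and Adipoq. Of perilipins 5 and 1 together, Plin5 was 93.2% ± 6.04 in heart and 1.74% ± 0.0666 in gWAT.

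**Figure D4:**
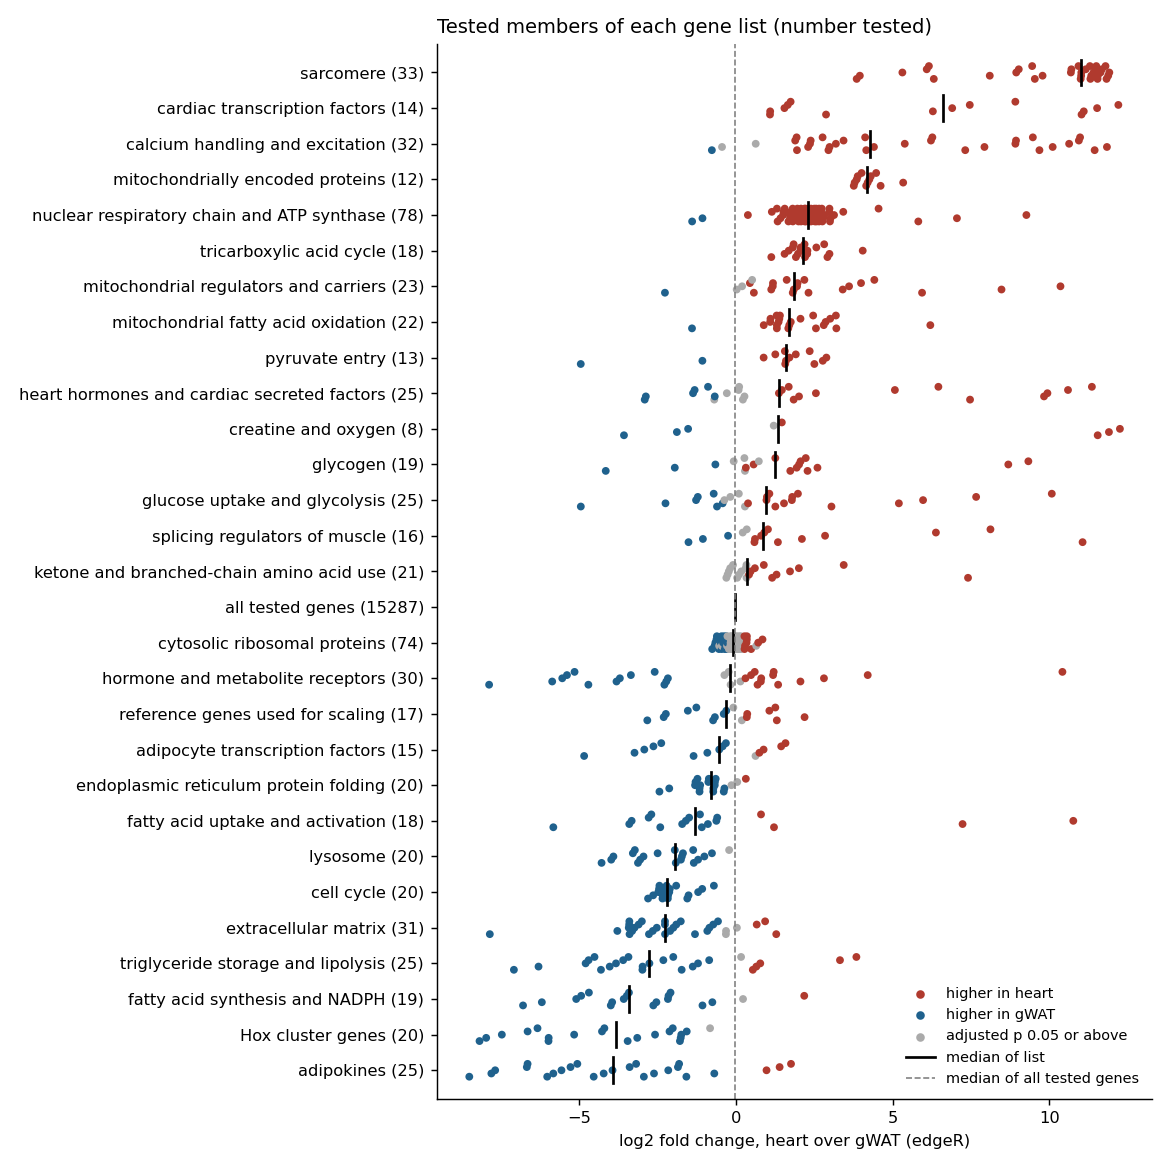
Log2 fold change, heart over gWAT, of every tested member of 28 gene lists, ordered by their medians (black bars), with the number tested in brackets and 1 row for all tested genes. Red points were called higher in heart, blue points higher in gWAT and grey points did not pass, and the dashed line is the median of all tested genes at −0.03. Medians run from 11.02 for the sarcomere to −3.93 for adipokines.

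Adipokines were transcribed mainly in gWAT. Of 25 tested adipokines, 22 were higher in gWAT and 3 in heart, with a median of −3.93. Per kilobase the leading ones in gWAT were Hp (2656 CPM per kb), Adipoq (1297), Lep (1242), Apoe, the lipid carrier (669.9), and C3, a complement component (418). Adipoq was at 2230.1, 1402 and 1740.4 CPM in gWAT and, as given above, far lower in heart (−6.64 ± 0.75, adjusted p = 4.46e-05). C3 was also sizeable in heart at 781, 940.1, 379 and 359 CPM, with the hearts rich in atrial and mesothelial transcript (WT1 and WT2) the higher, against 2418, 1846 and 2192 CPM in gWAT (−1.81 ± 0.34, or −2.52 with WT3 and WT4 as the only hearts). Apoe was even in gWAT (1424, 1444 and 1428 CPM) and lower in heart (399 ± 71.6 CPM, −1.85 ± 0.15). The 3 higher in heart were Nampt, an NAD-making enzyme that is also secreted (304 ± 57.1 against 89.6 ± 18.3 CPM, 1.76 ± 0.19), Cxcl12, a chemokine (0.98 ± 0.15), and Apln, apelin (13.7 ± 4.47 against 5.18 ± 1.90 CPM, 1.40 ± 0.32).

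The cardiac hormones and secreted factors were mixed, with 13 of 25 higher in heart, 6 in gWAT and a median of 1.38. The median depended on single hearts: without WT1, WT2 or WT4, when 23 genes were tested and 11 were higher in heart, it was 0.19, 0.28 and 0.39. Nppa, the atrial natriuretic peptide, was at 2309, 1798, 87.4 and 79.9 CPM in heart WT1 to WT4 and 0.797, 0.199 and 0.243 CPM in gWAT. WT1 and WT2 were far above WT3 and WT4, and all 4 hearts were above gWAT (11.36 ± 1.84, adjusted p = 0.000451). With WT3 and WT4 as the only hearts the difference was 7.71, with WT1 and WT2 alone 12.29, without heart WT1 10.64 and without gWAT WT1 12.18. The ventricular hormone gene Nppb had 4061 reads over the 4 hearts and 3 over the 3 gWAT libraries. Vegfa and Vegfb, which act on vessels, were both higher in heart (236 ± 23.7 against 91.1 ± 13.9 CPM, 1.38 ± 0.13, and 1.69 ± 0.14). Among those higher in gWAT were Igf1, the growth factor (238 ± 59.5 against 32.6 ± 5.58 CPM, −2.87 ± 0.19), Fstl1, a follistatin-like glycoprotein (−1.31 ± 0.15), and Manf, a stress-induced factor of the reticulum (−0.67 ± 0.11). Receptors were even only by the count of calls: of 30 hormone and metabolite receptors, 13 were higher in heart and 13 in gWAT. At least a 4-fold difference was reached by 4 of them in heart and 13 in gWAT, against 9.88% and 10.8% of all tested genes. The majority of calls turned to gWAT under several settings, such as 18 against 7 with library totals.

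**Figure D5:**
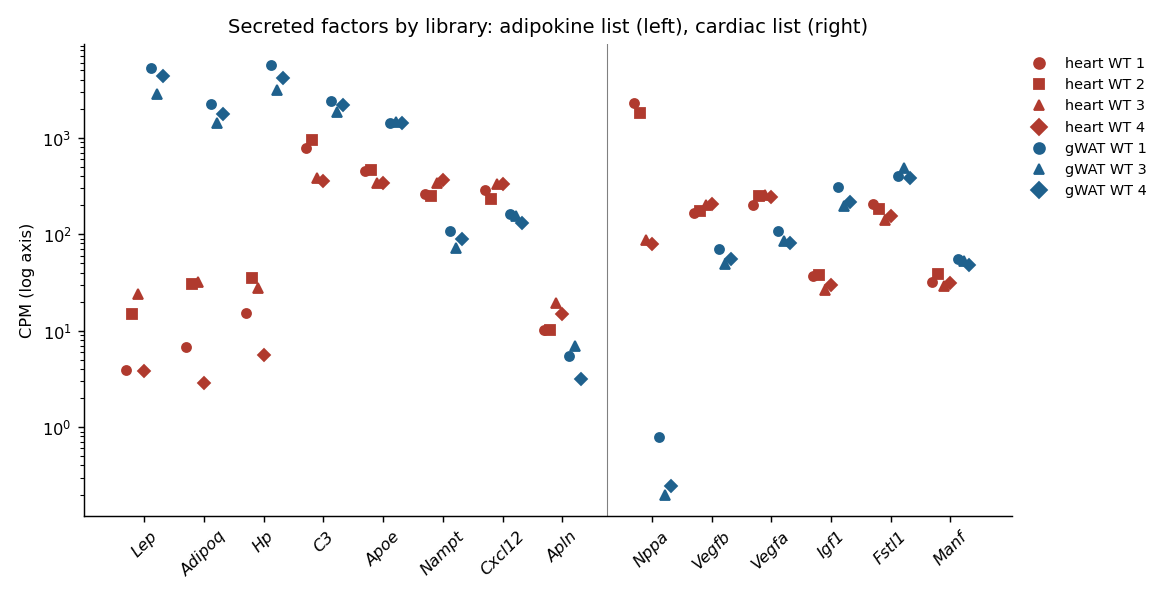
CPM (log axis) of 8 genes of the adipokine list and 6 of the cardiac list in each WT library. Red symbols are heart, blue symbols gWAT, and the shape is the replicate number. Lep, Adipoq and Hp lie far higher in gWAT, Nppa far higher in heart with WT1 and WT2 above WT3 and WT4, and Nampt, Cxcl12 and Apln are higher in heart.

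Single receptors differed widely between the tissues. Adrb3, the beta-3 adrenergic receptor of adipocytes, was at 159.6, 99.2 and 85 CPM in gWAT and 0.516, 4.64, 4.36 and 0.395 CPM in heart, with the hearts richer in adipocyte transcript (WT2 and WT3) the higher (−5.53 ± 0.58). Adrb1, the cardiac beta-1 receptor, was at 10.3, 15, 14.8 and 15 CPM in heart and 1.94, 1.05 and 2.86 CPM in gWAT (2.81 ± 0.30). Tshr, the thyrotropin receptor (−7.87 ± 0.38), Hcar1, the lactate receptor that restrains lipolysis (−5.14 ± 0.29), and Adora1, an adenosine receptor (−3.35 ± 0.22), were higher in gWAT, with Tshr at −8.64 without heart WT2. Npr3, which clears natriuretic peptides, was at 2335, 1234 and 1738 CPM in gWAT and 219, 149, 96.1 and 81 CPM in heart, where WT1, the heart with the most Nppa, was the highest (−3.70 ± 0.37, or −4.29 with WT3 and WT4 as the only hearts). Ghr, the growth hormone receptor, was at 1062 ± 368 CPM in gWAT and 177 ± 16.9 CPM in heart (−2.59 ± 0.22). Of the adiponectin receptors Adipor2 was higher in gWAT (−2.28 ± 0.17) and Adipor1 in heart (0.69 ± 0.10, a call lost with library totals, adjusted p = 0.247). Downstream, the phosphodiesterases Pde3a and Pde3b exchanged places (log2 ratio 2.96 ± 0.65 in heart and −4.93 ± 0.69 in gWAT), as did the protein kinase A subunits Prkar1a and Prkar2b (5.62 ± 0.91 in heart and −1.77 ± 0.48 in gWAT).

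Matrix genes were higher in gWAT for 25 of 31 and in heart for 3, with a median of −2.26. Sparc, which binds collagen, was at 6566, 4355 and 5008 CPM in gWAT and 501, 443, 527 and 522 CPM in heart (−3.41 ± 0.18). The fibrillar Col3a1 (−3.39 ± 0.16), the basement membrane chains Col4a1 (−1.90 ± 0.18) and Col4a2 (−2.10 ± 0.18), and Col6a1 (−3.40 ± 0.13) were also higher in gWAT. Higher in heart were Timp3, an inhibitor of metalloproteinases (874, 810.4, 545 and 643 against 308, 303 and 269 CPM, 1.29 ± 0.17), Col8a1 (0.94 ± 0.23) and Lama2, the laminin chain of muscle (0.67 ± 0.18). The last 2 lost their calls with library totals (adjusted p = 0.268 and 0.779), and Lama2 also with WT1 and WT2 as the only hearts (0.0916). In the same libraries 3 of 11 fibroblast and adipose progenitor markers were higher in heart and 3 in gWAT, with a median of 0.04, and summed levels of 3869, 3779.9, 3131 and 3236 CPM in heart and 5881, 6856 and 6858 CPM in gWAT. Gsn was the largest part of these sums, at 1471 to 1781 CPM in heart and 3567 to 4349 CPM in gWAT. Col1a1, Dcn and Lum stand in both the marker and the matrix lists. The part of fibroblast number in the matrix values was not tested.

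Transcription factors differed between the tissues at low levels. All 14 tested cardiac factors were higher in heart, with a median of 6.59, which was the same with genes at 0 in gWAT set to their bound. Gata4, a zinc finger factor of cardiac genes, was at 75.3, 84.2, 84.5 and 73.3 CPM in heart and 0.456, 0 and 0.0485 CPM in gWAT (8.92 ± 0.43, or 11.21 without gWAT WT1 and 8.32 without gWAT WT3), and Hand2 at 49.2 ± 7.40 and 0.636 ± 0.339 CPM (6.29 ± 0.29). Nkx2-5, Tbx5 and Irx4, named here after their values were seen, had 0 reads in all 3 gWAT libraries. With a floor of 3 counts over the gWAT group they were at least 495-fold, 791-fold and 369-fold higher in heart. Srf (1.75 ± 0.13), Mef2d (1.09 ± 0.12) and Tead1 (1.10 ± 0.17), which act in many cell types, differed less. Of 15 adipocyte factors 10 were higher in gWAT and 4 in heart, with a median of −0.53. Cebpa was at 558, 427 and 446 CPM in gWAT and 12.6, 22, 19 and 13.2 CPM in heart (−4.84 ± 0.22), and Pparg, the receptor that forms adipocytes, at 181, 113 and 139.5 and 19.1, 17.3, 22 and 18.1 CPM (−2.92 ± 0.16). Srebf1, of lipid synthesis (−2.63 ± 0.15), Nr1h3, an oxysterol receptor (−2.38 ± 0.10), and Rxra, the shared partner of such receptors (−0.91 ± 0.16), were also higher in gWAT. Prdm16, a factor of brown fat (1.59 ± 0.20), Tcf21 (1.45 ± 0.21) and Nr2f2 (0.75 ± 0.16) were higher in heart, Nr2f2 not with library totals (adjusted p = 0.36).

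Hox genes, which mark the position of a tissue along the body axis, were higher in gWAT. Of 20 tested, 19 were higher in gWAT and 0 in heart, with a median of −3.82 (−3.53 with genes at 0 in heart set to their bound). Hoxc8 was at 105, 49.9 and 61.6 CPM in gWAT and 0.172, 0, 0.811 and 0.198 CPM in heart (−7.96 ± 0.50, or −9.12 without heart WT3), and Hoxc6 at 18 ± 5.92 and 0.0908 ± 0.0731 CPM. Hoxd8 (−2.58 ± 0.35) and Hoxa5 (−3.14 ± 0.53) were low but present in heart, with Hoxa5 at −4.08 without heart WT2. Without heart WT3 all 20 were called and the median was −4.34, and without heart WT2 it was −4.29. Neighbouring Hox genes overlap and have antisense transcripts, and without the strand setting of the counting their single values are uncertain.

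Regulators of muscle splicing were higher in heart for 11 of 16 and in gWAT for 3, with a median of 0.86. Rbm20, which controls the splicing of Ttn, was at 226, 220.0, 251 and 248 CPM in heart and 0.627, 0.848 and 1.02 CPM in gWAT (8.12 ± 0.17), and Rbm24 had 7032 reads over the hearts and 4 over gWAT. Qk (0.91 ± 0.14) and Mbnl2 (0.61 ± 0.11) differed by less, Mbnl2 not with library totals (adjusted p = 0.722). Celf2 (−1.51 ± 0.12), the splicing repressor Ptbp1 (−1.05 ± 0.11) and Mbnl1 (−0.25 ± 0.09, adjusted p = 0.0326) were higher in gWAT. Mbnl1 lost its call without heart WT2, WT3 or WT4 or gWAT WT1 or WT4, at adjusted p = 0.0584 to 0.0764. Of 74 cytosolic ribosomal protein genes, 9 were higher in heart and 21 in gWAT, shares below the background, with a median of −0.10. Rpl3l, the muscle form of ribosomal protein L3, was 85.9% ± 4.36 of its pair with Rpl3 in heart and 0.116% in gWAT. Eef1a2, the elongation factor form of muscle and neurons, was 74.3% of its pair with Eef1a1 in heart and 0.162% in gWAT.

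Genes that are often used to scale expression between samples differed between these tissues. Of 17 tested, 6 were higher in heart and 9 in gWAT. B2m, of the class I complex, was at 303, 346, 364 and 329 CPM in heart and 1790.1, 1439 and 1727 CPM in gWAT (−2.30 ± 0.13), and Actb at 321, 424, 403 and 362 and 1383, 1986 and 1947 CPM (−2.23 ± 0.17). Sdha (2.19 ± 0.16), Tfrc, the transferrin receptor (1.31 ± 0.13), and Pgk1 (1.07 ± 0.09) were higher in heart. The smaller differences of Rplp0 (0.35 ± 0.09) and Eef2 (0.37 ± 0.13) were toward heart with TMM and turned toward gWAT with library totals (−0.23 and −0.22), and Eef2 lost its call without heart WT1, WT3 or WT4 or gWAT WT4 (adjusted p = 0.0692 to 0.0927).

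Cell type markers other than those of muscle and adipocytes also differed. Endothelial markers were higher in heart for 11 of 12 and in gWAT for 1, with a median of 1.74, and summed to 1933, 1768, 1819 and 1875 CPM in heart and 579, 681 and 528 CPM in gWAT. Macrophage markers were higher in gWAT for 9 of 10 and in heart for 0 (median −2.09), and markers of lipid-laden macrophages for 7 of 8 (median −5.67). Of 9 mesothelial markers 0 were called with edgeR, 0 at an unadjusted p under 0.05, and 0 with DESeq2 or limma-voom, and their sums in heart WT1 and WT2 lay above all 3 gWAT libraries (233, 108 and 198 CPM) and in WT3 and WT4 below all 3. Red cell genes were uneven in heart (625, 1761, 557 and 217 CPM), with overlapping sums in gWAT (313, 219 and 95.6 CPM). Of the 5 genes 4 were called higher in heart, while the groups did not overlap for 1.

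Lysosomal and cell cycle genes were higher in gWAT. Of 20 lysosomal genes 19 were higher in gWAT and 0 in heart, with a median of −1.93. Psap, which activates lipid breakdown, was at 2464, 4331 and 3558 CPM in gWAT and 984, 909, 1064 and 1145 CPM in heart (−1.75 ± 0.20). The proteases Ctsb (2930.5, 4542 and 3889.7 CPM in gWAT), Ctsd and Ctss differed by −2.94 ± 0.17, −1.72 ± 0.15 and −3.90 ± 0.27, and Lamp1, of the lysosomal membrane, was at 448 ± 25.8 CPM in heart and 898 ± 27.2 CPM in gWAT. All 20 cell cycle genes were higher in gWAT, with a median of −2.19. In the KO contrast the median was −0.65 and 11 of the 20 were called in the same direction, where lysosomal genes had a median of −1.46 and 18 of 19. Mki67, a mark of dividing cells, was at 47.8, 98 and 76.6 CPM in gWAT and 15.8, 10.3, 19.1 and 21 CPM in heart (−2.17 ± 0.28), and Pcna and the helicase subunits Mcm3 and Mcm6 differed by −1.07 ± 0.16, −1.55 ± 0.18 and −1.20 ± 0.18. WT1 was the lowest gWAT library for Psap, Ctsb, Ctss, Mki67, Pcna, Mcm3 and Mcm6, as it was for the macrophage sum. Without it the medians were −2.03 for lysosomal and −2.40 for cell cycle genes, and the part of macrophage number in them was not tested. Genes of protein folding in the reticulum were higher in gWAT for 17 of 20 and in heart for 1 (median −0.79), by small amounts such as −1.16 ± 0.11 for Calr and −1.16 ± 0.11 for P4hb, with Canx higher in heart (0.32 ± 0.10) but at −0.26 with library totals, and not called without gWAT WT4 (adjusted p = 0.0559).

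The same contrast in the KO mice called most of the same genes, with the cell cycle list as given above. Of 15245 genes tested in KO, 10635 were called (69.8%), 5330 higher in heart and 5305 in gWAT. The 9021 genes called in the same direction in both genotypes were 86.9% of the WT calls and 86.6% of the KO calls, each among genes tested in both, and 29 were called in opposite directions. The difference between the genotypes in the tissue contrast was called for 184 of 16014 genes (1.15%), 126 with a higher heart-to-gWAT ratio in KO and 58 with a lower one. DESeq2 called 669 for the same term. Genes described above were among the 184. The macrophage genes Gpnmb (−8.41 ± 0.66 in WT, −4.82 in KO, interaction adjusted p = 0.0289), the lysosomal Psap (−0.77 in KO, 0.0447) and Ctsd (−0.85, 0.0353), and the cell cycle genes Pcna (−0.19, 0.0449) and Mcm3 (−0.46, 0.0337) had a larger difference toward gWAT in WT. Toward heart, Gyg (1.04, 0.021) and Slc6a8 (3.15, 0.041) had a larger difference in KO, and S100a1 (2.56, 0.0413) a smaller one.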

How the data were processed

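RNA was taken from flash-frozen heart and gonadal fat with Trizol, and libraries of its mRNA came from the Kapa mRNA HyperPrep kit, per the labels' protocols. Per the submitters' processing notes the authors used FastQC, Picard, Trimmomatic 0.32, HISAT2 2.1.0, HTSeq 0.11.0 and limma on the mm10 build. The deposited values are whole-number read counts per gene, not normalised. Neither the annotation release nor the strand setting of the counting is given in the sources used here. No read-level step was repeated.

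The deposited counts of the 7 WT libraries were tested with edgeR 4.0.16 in R 4.3.3 (filterByExpr, TMM scaling, quasi-likelihood F-test, Benjamini-Hochberg adjustment over all 15287 genes that passed the filter). Of 33459 identifiers 53 had no symbol and held 0.0135% of the reads. The spread between replicates was a biological coefficient of variation of 0.174. The script was tested on simulated data. The KO contrast used the 7 other libraries, and the interaction all 14. Levels per kilobase use the union of exons in GENCODE M21 (GRCm38). Ratios within pairs of genes add 0.5 reads to each gene. No pair of libraries in a group was alike within counting noise (lowest chi-square per degree of freedom 3.74).

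The genes named are the 12 with the largest fold in each direction among called genes with a mean log2 CPM above 5 and no overlap, the 10 most abundant per kilobase in each tissue, both members of each pair, and of each list up to 5 of its most abundant members and up to 3 called against its majority. The members, pairs and lists were chosen with earlier results of these data known. Alternatives were RLE scaling, library totals, mitochondrial genes left out, other filters, DESeq2 1.42.0, limma-voom (limma 3.58.1), a robust fit, a fit of all libraries, a replicate block and leaving out each library. Values of 1 pair and of 1 gene of the lists are not reported here. The fits with only 2 of the hearts were chosen after seeing the data.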

Additional observations from a re-analysis of the deposited data

Results flagged for a closer look

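The tissue contrast of 8 genes named above differed between KO and WT by the interaction test of edgeR. The log2 heart-to-gWAT difference in KO minus that in WT was 3.57 for Gpnmb, 0.97 for Psap, 0.86 for Ctsd, 0.86 for Pcna and 1.07 for Mcm3, all genes higher in gWAT. It was 1.67 for Slc6a8, 0.71 for Gyg and −0.64 for S100a1, all higher in heart. Over all genes 184 of 16014 were called.

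Over 246 named genes and 43 pairs, 1 heart lay far from the other 3 in 7 by Dixon's gap test at its 95% critical value, which chance flags in about 1 of 20 groups. The heart WT1 stood apart for Adrb1 (10.3 CPM), Mcm6 (18.3 CPM) and Perm1 (302 CPM), WT2 for Cpt1b (14.8 CPM) and Plin3 (89.4 CPM), and WT3 for mt-Co2 (215 CPM). Among the 43 pairs, the log2 ratio of Esrrg to Esrra stood apart in heart WT2 at −1.39.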

How the results depend on the processing

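Library totals in place of TMM moved the counts of calls to 2897 higher in heart and 8569 higher in gWAT. They turned the sign of 7 named genes that were called with TMM: Aldoa (−0.19), Canx (−0.26), Eef2 (−0.22), Gm42418 (−0.035), Gyg (−0.26), Plin3 (−0.0425), Rplp0 (−0.23). Among named genes not called with TMM, Slc25a5 went from 0.03 to −0.55 and Slc2a1 from 0.10 to −0.49. For differences of at least 4-fold, a fold of 2 gave 2995 in heart and 3311 in gWAT, a fold of 8 gave 876 and 830, and a test against a 2-fold difference (glmTreat) 2294 and 2525. DESeq2 called 669 genes for the interaction where edgeR called 184. Leaving out 1 library at a time gave 9708 to 10820 calls in WT, 4634 to 5237 of them higher in heart and 5074 to 5583 in gWAT, 1461 to 1643 and 1609 to 1751 at 4-fold, and a difference in mitochondrial share of 25.64 to 27.51 percentage points. No label says whether equal replicate numbers mark the same mouse. Correlations of same-numbered deviations (0.0431, 0.0705 and −0.0223) cannot decide it, since deviations in 2 tissues of a mouse need not agree. The replicate block gave 9953 calls in WT, 10467 in KO and 181 for the interaction. With it the named genes Aldoa, Canx, Cd36, Eef2, Gm42418, Mbnl1 and Myl4 were not called (adjusted p = 0.0929, 0.0609, 0.0833, 0.0687, 0.272, 0.132 and 0.152). Of 4638 comparisons of a named gene with an alternative, 4567 kept the side of the threshold, 59 lost the call and 5 gained one. In the other 7 a gene called in the main fit changed sign. Changes of sign in genes not called in the main fit were not counted. Of 531 list medians 74 moved by more than the spread between replicates, 28 of them under library totals. With few reads in a tissue (Perm1, Gata4, Hox genes) the depth limits the size of the fold.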
